A study of Mus musculus with 9 samples.

Results

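The 56 genes described here encode the enzymes, transporters and regulators that carry glucose carbon through glycolysis to lactate, pyruvate into the mitochondrion and around the TCA cycle, and fatty acids through mitochondrial oxidation. They are a list of named mouse genes, taken by symbol with no threshold on their values and without the subunits of succinate dehydrogenase, and they make up 56 of the 55536 gene IDs in the count table. All 56 passed the filter on low counts that left 13815 genes for testing. The list holds 21 genes from glucose uptake to lactate export, 21 genes of pyruvate entry and the TCA cycle, and 14 genes of fatty acid oxidation. The symbol Aldoa also belongs to a second ID with few counts, which was not used.

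Glycolysis splits glucose into pyruvate in the cytosol and yields ATP without oxygen, and its end product is either reduced to lactate and exported or oxidised to acetyl-CoA by the pyruvate dehydrogenase complex. The TCA cycle oxidises acetyl-CoA and gives electrons to the respiratory chain, while beta-oxidation shortens fatty acids that the carnitine shuttle has brought into the mitochondrion and supplies the same acetyl-CoA. In macrophages these routes are known to shift with activation: endotoxin raises glycolysis and breaks the TCA cycle at isocitrate dehydrogenase, and interleukin 4 raises oxidation.

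RNA-seq was done on bone marrow-derived macrophages (BMDM), cells grown from the marrow of male mice aged 6 to 12 weeks in DMEM with 10% fetal bovine serum and given 25 ng/mL of the growth factor M-CSF over 6 days. The labels give the genotype of the recipient cells in every group as WT. One group of 3 libraries received EKO-BMDM-exo, exosomes (small secreted vesicles) from cells of ApoE-deficient mice, a second group of 3 received WT-BMDM-exo, exosomes from cells of wild-type mice, each at 2e+09 particles/mL, and the third group of 3 received PBS, all for 18 hours. The design text calls the 3 libraries of a group biological replicates, but no source used here ties them to different mice or to different batches of exosomes. What the p-values weigh is therefore the variation among these 9 libraries, which may be technical.

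Libraries held 28581306 to 35929596 counts, of which the 56 genes took 0.723% to 0.742%. On the first principal component, with 15.2% of the variance, replicate 3 of WT-BMDM-exo lay at 57.5 and the other libraries between -16.8 and 3.4, and on the second, with 15.1%, replicate 2 of WT-BMDM-exo lay at -45.4 and replicate 2 of EKO-BMDM-exo at 38.0. All 14 macrophage markers listed were measured, with summed levels of 24500 to 25500 CPM after EKO-BMDM-exo, 25100 to 25800 CPM after WT-BMDM-exo and 27100 to 28400 CPM after PBS (CPM, the share of a library's counts with TMM scaling); by edgeR 11, 9 and 4 of the 14 passed in EKO-BMDM-exo against PBS, WT-BMDM-exo against PBS and EKO-BMDM-exo against WT-BMDM-exo. Of 8 erythroid markers 7 were at 0 in all libraries, and of 8 mast cell markers 6 were. In bulk RNA, fewer cells of a type and less RNA per cell cannot be told apart.

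Between the groups, few of the 56 genes passed the edgeR threshold given next. In none of the 3 blocks of the list did more than 2 genes pass in a comparison. With edgeR's quasi-likelihood test, adjusted by Benjamini-Hochberg over all 13815 genes at a threshold of 0.05, EKO-BMDM-exo against PBS gave 1 of the 56 genes higher (Hk3) and 0 lower. That comparison called 4.23% of all genes tested, 1.82% higher and 2.41% lower. WT-BMDM-exo against PBS gave 2 genes higher (Hk3 and Mdh2) and 2 lower (Pkm and Idh1), beside 4.11% of all genes, 1.93% higher and 2.18% lower. EKO-BMDM-exo against WT-BMDM-exo gave 1 gene higher (Pkm) and 0 lower, beside 0.695% of all genes, 0.282% higher and 0.413% lower. Both comparisons with PBS use the same 3 PBS libraries, so their values are given side by side and not as independent results.

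Where edgeR called 0 genes lower, 5 of the 56 had an unadjusted p under 0.05 and a lower level after EKO-BMDM-exo than after PBS, and 4 did after EKO-BMDM-exo against WT-BMDM-exo. DESeq2 called 1 and 2 of these lower, Idh3g in both comparisons and Cpt1a in the second, and limma-voom called 0 in both. Over all genes and in either direction, DESeq2 called 663 and 153 in these comparisons, and limma-voom 627 and 106. In WT-BMDM-exo against PBS, DESeq2 called 701 and limma-voom 606, beside 568 by edgeR. Counts at an unadjusted p under 0.05, here and below, are given without the share of all genes at that threshold. They therefore do not show whether these genes differ from others. Where groups are said not to overlap, the share of all genes that separate this way is not given either, so the same limit holds. The median log2 fold change over the 56 genes was 0.019 for EKO-BMDM-exo against PBS, 0.041 for WT-BMDM-exo against PBS and -0.009 for EKO-BMDM-exo against WT-BMDM-exo, beside -0.0005, -0.0033 and 0.0002 over all genes tested. The single genes ranged from -0.27 to 0.56, from -0.33 to 0.52 and from -0.36 to 0.43 in these comparisons. The 95% interval of the fold change lay within 1.25-fold in either direction for 38, 39 and 42 of the 56 genes, so that for most of them a larger difference is outside the interval, and for the other 18, 17 and 14 it is not.

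**Figure D1:**
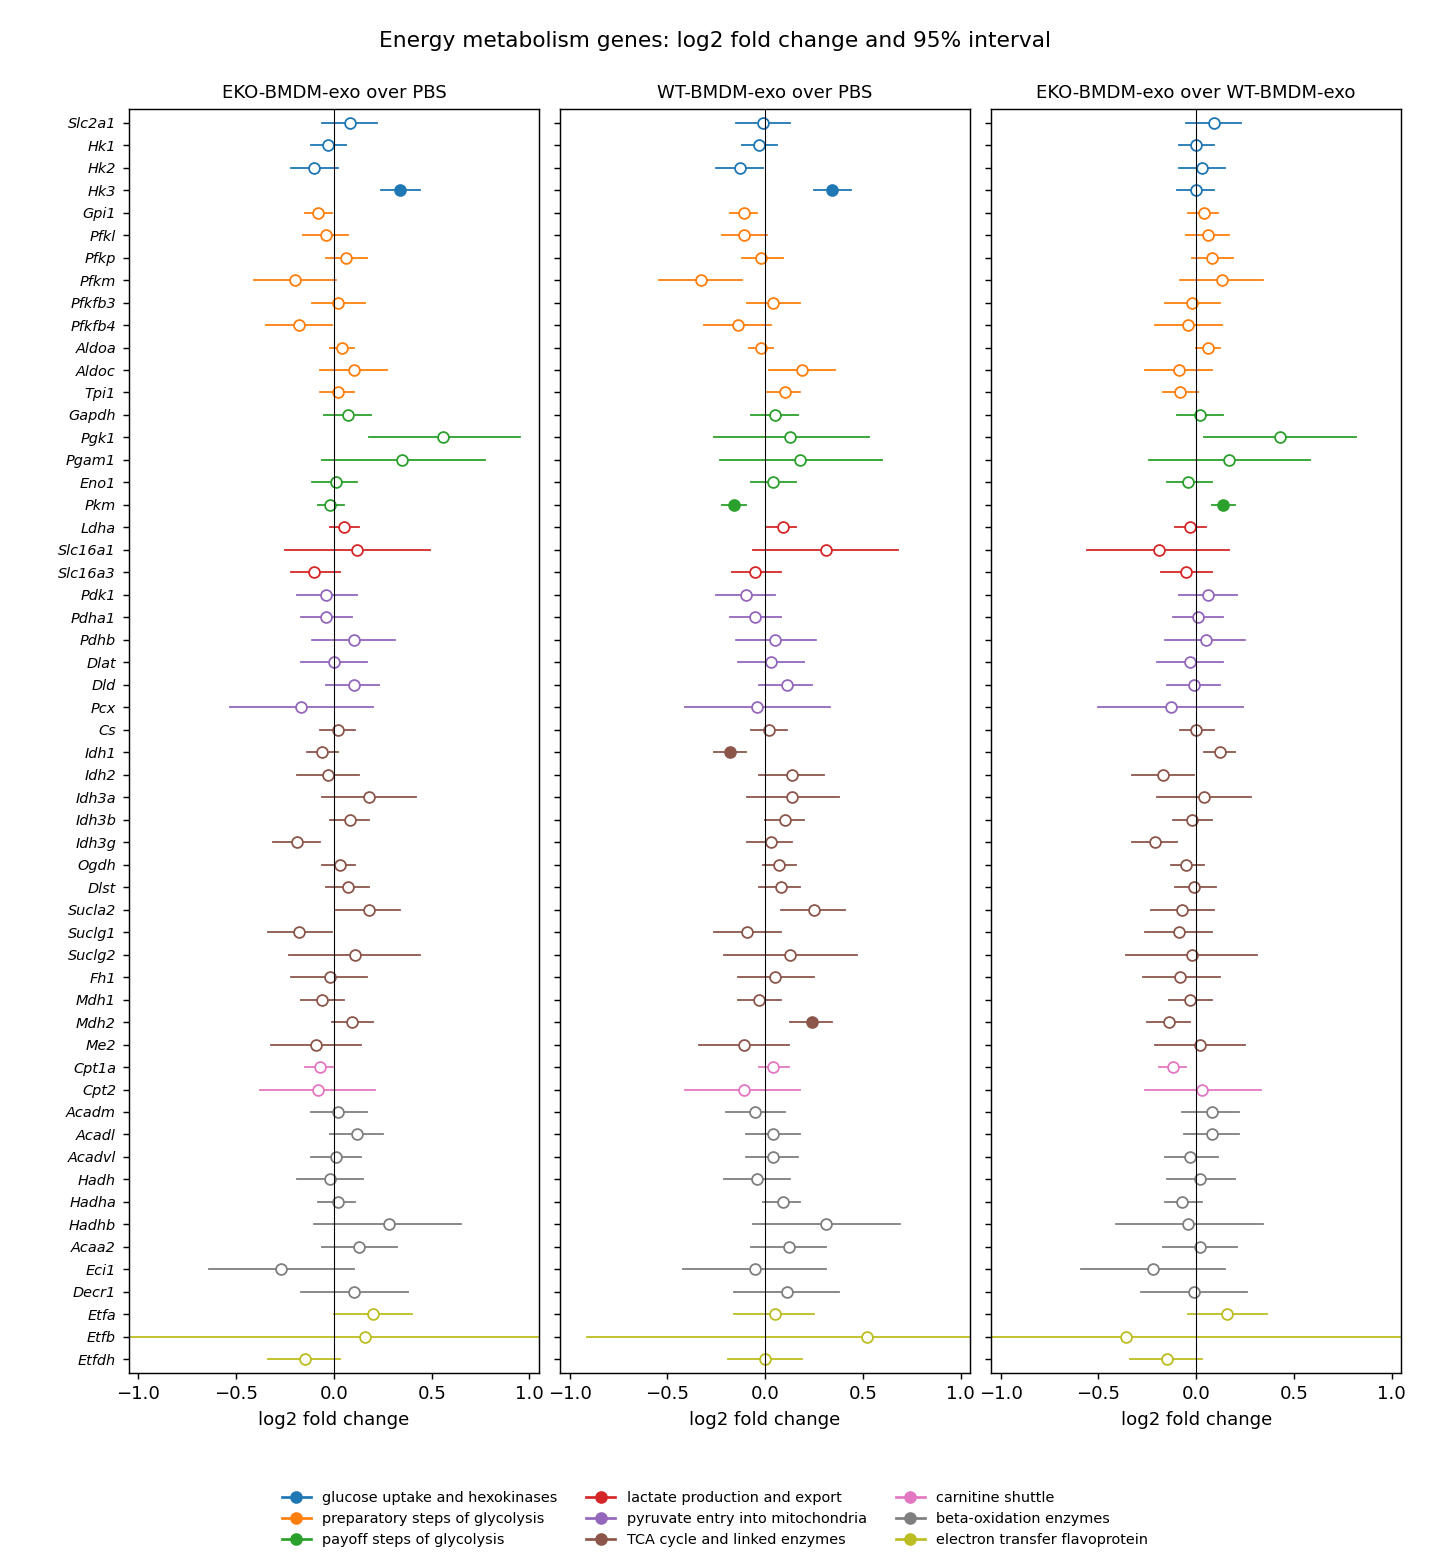
Log2 fold change (x axis) of each of the 56 genes (rows, coloured by role) with its unadjusted 95% interval as a line, for EKO-BMDM-exo over PBS, WT-BMDM-exo over PBS and EKO-BMDM-exo over WT-BMDM-exo from left to right. Filled points passed the edgeR threshold: Hk3 in the left panel, Hk3, Mdh2, Pkm and Idh1 in the middle panel and Pkm in the right panel; the intervals of Etfb run past the edges of the plot.

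Glucose enters macrophages mainly through GLUT1, encoded by Slc2a1, and hexokinases trap it as glucose 6-phosphate. Of the 4 genes of this step, Hk3 was higher after both kinds of exosome, and the other 3 were not called in any comparison. Hk3 (ENSMUSG00000025877, chromosome 13, 55005985 to 55021385, minus strand, GRCm38) encodes hexokinase 3, the hexokinase of myeloid cells. It was measured at 322, 348 and 330 CPM after EKO-BMDM-exo and 340, 338 and 325 CPM after WT-BMDM-exo, against 244, 251 and 294 CPM after PBS. All 6 exosome libraries lay above all 3 PBS libraries, of which replicate 3 was the highest, and the exosome groups overlapped each other.

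Hk3 was higher by 0.34 ± 0.048 on the log2 scale (SE) after EKO-BMDM-exo than after PBS (edgeR adjusted p = 9.13e-06), a difference of 26.7%, and by 0.34 ± 0.048 after WT-BMDM-exo (edgeR adjusted p = 1.11e-05), 27.0%. Between EKO-BMDM-exo and WT-BMDM-exo the difference in Hk3 was 0.00, with a 95% interval of -0.10 to 0.09 (edgeR adjusted p = 0.994). The Hk3 calls against PBS held under all 17 alternatives, with log2 fold changes of 0.29 to 0.43 for each exosome. Hk3 is also expressed in granulocytes. The 6 neutrophil markers tested were called by edgeR in no comparison, the 12 listed summed to 12.7 to 23.7 CPM after EKO-BMDM-exo and 19.5 to 38.9 CPM after WT-BMDM-exo, against 29.4 to 41.1 CPM after PBS, and the granule protease gene Prtn3 was at 0. The 6 endothelial markers summed to 199 to 206 CPM after EKO-BMDM-exo and 180 to 206 CPM after WT-BMDM-exo, against 145 to 168 CPM after PBS, with Vwf the most abundant, Emcn at 0 and 1 of 4 tested called against PBS for each exosome. The 6 adipocyte markers, of which Fabp4, a lipid carrier also made by macrophages, was the most abundant and 4 were at 0, summed to 43.0 to 46.8 CPM after EKO-BMDM-exo and 37.4 to 51.7 CPM after WT-BMDM-exo, against 29.8 to 36.4 CPM after PBS, and the 1 tested was called against PBS for each exosome. The part of these markers and of the lower macrophage marker sum in the result was not tested.

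**Figure D2:**
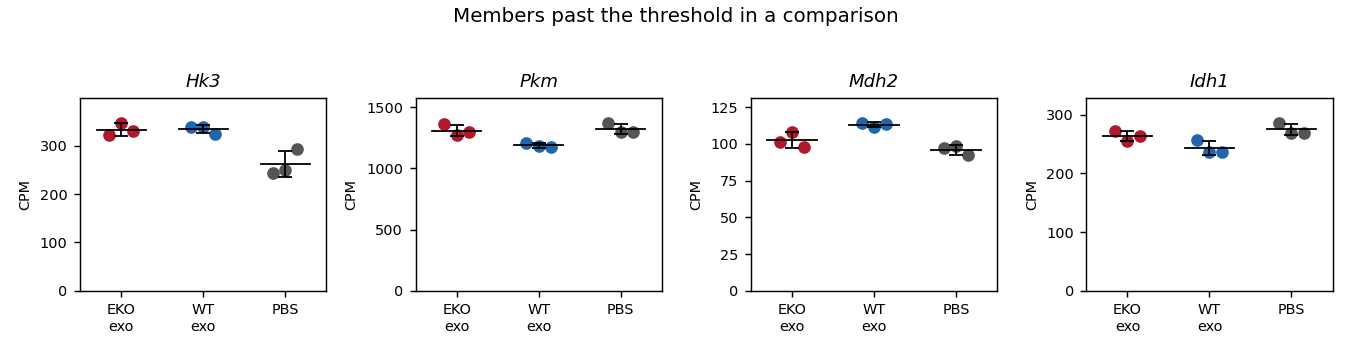
CPM (y axis, from 0) of Hk3, Pkm, Mdh2 and Idh1 in each library (points) with the group mean and SD (lines, 3 libraries each), for EKO-BMDM-exo, WT-BMDM-exo and PBS from left to right. Hk3 is higher in both exosome groups, at 333 and 334 CPM on average against 263 CPM after PBS, and Pkm is lower after WT-BMDM-exo alone, at 1188 CPM against 1310 CPM after EKO-BMDM-exo and 1324 CPM after PBS.

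Per kilobase of exon (RPKM, averaged over the 9 libraries), Hk3 was the most abundant of the hexokinases at 84.2, against 20.9 for Hk1, the housekeeping isozyme bound to mitochondria, and 15.2 for Hk2, the isozyme induced by insulin and endotoxin. Hk2 had 85.7, 89.1 and 93.3 CPM after EKO-BMDM-exo and 93.2, 80.9 and 88.3 CPM after WT-BMDM-exo, against 97.0, 95.8 and 93.9 CPM after PBS. Every exosome library of Hk2 was below every PBS library, but neither difference passed, at -0.10 ± 0.058 (edgeR adjusted p = 0.527) and -0.13 ± 0.059 (edgeR adjusted p = 0.299). Slc2a1 had 71.7, 78.3 and 71.0 CPM after EKO-BMDM-exo and 64.7, 74.6 and 68.3 CPM after WT-BMDM-exo, against 74.6, 66.7 and 67.6 CPM after PBS, and its groups overlapped in each comparison. Hk1 averaged 177 ± 5.86 CPM after EKO-BMDM-exo, 177 ± 1.47 CPM after WT-BMDM-exo and 181 ± 5.65 CPM after PBS (SD, n = 3 each). Summed over the 4 genes, uptake and phosphorylation stood at 659.2 to 685.2 CPM after EKO-BMDM-exo and 657.2 to 673.8 CPM after WT-BMDM-exo, against 590.3 to 643.1 CPM after PBS. Of the other 3 genes, Hk1 and Hk2 were lower on average in both exosome groups than after PBS, and Slc2a1 was higher on average after EKO-BMDM-exo, none of them past the threshold.

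The 250 bases before the RefSeq start of Hk3 and of Pkm, both called in more than 1 comparison, were read from RefSeq promoters on GRCm38.p6. Capitals mark matches to ACGTG, the core bound by HIF factors, and GAGGAA, the core bound by the myeloid factor PU.1, searched on both strands.
Hk3, chr13:55021386-55021635, minus strand: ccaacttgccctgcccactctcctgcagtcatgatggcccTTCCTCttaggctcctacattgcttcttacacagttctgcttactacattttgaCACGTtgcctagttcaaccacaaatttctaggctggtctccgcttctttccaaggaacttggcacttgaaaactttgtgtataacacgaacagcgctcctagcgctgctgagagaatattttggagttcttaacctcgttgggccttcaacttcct
Pkm, chr9:59656326-59656575, plus strand: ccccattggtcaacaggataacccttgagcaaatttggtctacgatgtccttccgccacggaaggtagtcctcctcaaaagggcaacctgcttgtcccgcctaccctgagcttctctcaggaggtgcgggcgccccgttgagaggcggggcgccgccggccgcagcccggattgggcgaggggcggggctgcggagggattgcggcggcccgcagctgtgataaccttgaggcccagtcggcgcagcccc
The Hk3 stretch holds 6 CpG dinucleotides at 47.2% GC and 1 match to each core, and the Pkm stretch holds 21 CpG at 66.4% GC and 0 matches to either. The same stretches of Mdh2 and Idh1, the other members called, hold 23 and 18 CpG at 63.2% and 61.6% GC and 0 matches to either. Over all 32851 promoters in the RefSeq table, the 250 bases before the start held ACGTG in 16.6% and GAGGAA in 23.3%. Of the 72 promoters of the 52 members found in that table, 26 held ACGTG (36.1%) and 16 held GAGGAA (22.2%). TGACNNNGC, the core of the antioxidant response element, was in 6 of the 72 (8.33%) and in 10.2% of all promoters. ACGTG itself holds a CpG, and the promoters compared were not matched for GC or CpG content. The part of that content in these shares was not tested, and a match describes the letters alone.

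The preparatory steps of glycolysis, from glucose 6-phosphate to triose phosphates, held 9 genes, none of them called by edgeR in any comparison; at an unadjusted p under 0.05, 0 were higher and 2 lower after EKO-BMDM-exo than after PBS, 2 and 2 after WT-BMDM-exo than after PBS, and 1 and 0 after EKO-BMDM-exo than after WT-BMDM-exo. DESeq2 called Pfkm and Gpi1 lower after WT-BMDM-exo than after PBS, and limma-voom called Gpi1. The medians of the 9 log2 fold changes were 0.016, -0.021 and 0.036 for EKO-BMDM-exo against PBS, WT-BMDM-exo against PBS and EKO-BMDM-exo against WT-BMDM-exo. Gpi1, the phosphoglucose isomerase, chosen after its values were seen, had 349, 363 and 362 CPM after EKO-BMDM-exo and 349, 339 and 359 CPM after WT-BMDM-exo, against 380, 372 and 380 CPM after PBS. All 6 exosome libraries were below the 3 PBS libraries, with log2 fold changes of -0.08 ± 0.035 (edgeR adjusted p = 0.302) for EKO-BMDM-exo and -0.11 ± 0.035 (edgeR adjusted p = 0.0583) for WT-BMDM-exo. Exons of the predicted gene Gm26762 on the opposite strand overlap 11.5% of the exon length of Gpi1.

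Phosphofructokinase is the committed step of glycolysis. Per kilobase of exon, Pfkl, the liver-type subunit, was highest at 15.6 RPKM, ahead of the platelet-type Pfkp at 10.3 and the muscle-type Pfkm at 7.83. In CPM, Pfkp was higher at 138, against 104 for Pfkl, averaged over the 9 libraries. The annotated exon length is 13401 bases for Pfkp and 6675 for Pfkl, with coding sequences of 2352 and 2340 bases, so their order depends on the length used. Pfkm, chosen after its values were seen, had 26.4, 24.3 and 26.0 CPM after EKO-BMDM-exo and 23.9, 25.7 and 20.6 CPM after WT-BMDM-exo, against 30.3, 30.5 and 27.4 CPM after PBS. Its exosome libraries were all below its PBS libraries, at -0.20 ± 0.10 (edgeR adjusted p = 0.407) and -0.33 ± 0.10 (edgeR adjusted p = 0.0623; DESeq2 adjusted p = 0.0397). Pfkfb3, which makes the phosphofructokinase activator fructose 2,6-bisphosphate and is induced in inflammatory macrophages, had 62.9, 68.5 and 62.1 CPM after EKO-BMDM-exo and 67.4, 68.5 and 60.2 CPM after WT-BMDM-exo, against 62.6, 63.4 and 64.1 CPM after PBS, with overlapping groups throughout. Its paralogue Pfkfb4 averaged 44.0 ± 2.89, 45.3 ± 3.06 and 49.9 ± 5.10 CPM in these groups.

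Aldoa, the main aldolase, had the highest measured level of the 56 genes at 464 RPKM, and Aldoc stood at 13.3 RPKM. Coding sequences of Gapdh, Pgk1, Pgam1, Hadhb and Eno1 recur elsewhere, as given below, and the part of this in the ranking was not tested. Aldoa levels averaged 1381 ± 37.7 CPM after EKO-BMDM-exo, 1324 ± 23.6 CPM after WT-BMDM-exo and 1344 ± 23.5 CPM after PBS. Its difference between the exosomes was 0.06 ± 0.028 (edgeR adjusted p = 0.564). Tpi1, the triose phosphate isomerase, averaged 190 ± 6.86, 201 ± 8.26 and 188 ± 4.25 CPM in these groups.

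The payoff steps, where ATP and NADH are made, held 5 genes: Gapdh, Pgk1, Pgam1, Eno1 and Pkm. Pkm was lower after WT-BMDM-exo than in both other groups, and the other 4 were not called in any comparison. Pkm (ENSMUSG00000032294, chromosome 9, 59656368 to 59679375, plus strand) encodes pyruvate kinase, the last step of glycolysis, whose M2 splice form also binds HIF1A in activated macrophages. It was measured at 1365, 1272 and 1295 CPM after EKO-BMDM-exo and 1211, 1180 and 1174 CPM after WT-BMDM-exo, against 1373, 1298 and 1302 CPM after PBS. The 3 WT-BMDM-exo libraries were below all 6 others, and EKO-BMDM-exo and PBS overlapped. The counts are per gene, so the M1 and M2 forms are not separated.

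Pkm fell to 1188 ± 20.0 CPM after WT-BMDM-exo, against 1324 ± 42.2 CPM after PBS, a log2 fold change of -0.16 ± 0.030 or -10.3% (edgeR adjusted p = 0.000759), and this call held under all 19 alternatives. After EKO-BMDM-exo, at 1310 ± 48.7 CPM, it differed from PBS by -0.02 ± 0.030 (edgeR adjusted p = 0.929). The direct test of EKO-BMDM-exo against WT-BMDM-exo gave 0.14 ± 0.030 (edgeR adjusted p = 0.0101), with a 95% interval of 0.08 to 0.20, so Pkm was higher by 10.3% after EKO-BMDM-exo. The 8 dendritic cell markers, of which Bst2 was the most abundant, summed to 80.1 to 88.0 CPM after EKO-BMDM-exo and 97.7 to 101 CPM after WT-BMDM-exo, with 86.0 to 100 CPM after PBS. Only 1 of the 8 dendritic cell markers passed the filter on low counts and was tested. It was called between the exosomes, which does not show a difference in dendritic cells. The part of these markers in the Pkm difference was not tested. The Pkm call between the exosomes ended without EKO-BMDM-exo replicate 1 (0.11, edgeR adjusted p = 0.253), without WT-BMDM-exo replicate 2 (0.14, edgeR adjusted p = 0.0725) or without WT-BMDM-exo replicate 3 (0.13, edgeR adjusted p = 0.0924). Exons of the predicted gene Gm49759 overlap 15.3% of the exon length of Pkm on the same strand and hold counts equal to 4.83% of those of Pkm. With these counts added, the values were -0.15 for WT-BMDM-exo against PBS and 0.14 for EKO-BMDM-exo against WT-BMDM-exo (edgeR adjusted p = 0.00111 and 0.0087).

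Gapdh, which makes NADH from glyceraldehyde 3-phosphate and is often used as a control gene, had 90.5, 91.4 and 93.4 CPM after EKO-BMDM-exo and 96.5, 83.3 and 91.6 CPM after WT-BMDM-exo, against 83.4, 90.3 and 89.1 CPM after PBS. EKO-BMDM-exo libraries were all above PBS libraries by a narrow margin, and WT-BMDM-exo overlapped both. The log2 fold changes of Gapdh were 0.07 ± 0.059 for EKO-BMDM-exo against PBS, 0.05 ± 0.059 for WT-BMDM-exo against PBS and 0.02 ± 0.059 between the exosomes. Pgk1, the phosphoglycerate kinase, chosen after its values were seen, had the highest log2 fold change of the 56 genes in EKO-BMDM-exo against PBS but did not pass. It had 9.63, 6.92 and 8.83 CPM after EKO-BMDM-exo and 6.00, 7.04 and 5.81 CPM after WT-BMDM-exo, against 6.11, 5.53 and 5.55 CPM after PBS. EKO-BMDM-exo lay above PBS in every library, at 0.56 ± 0.19 (edgeR adjusted p = 0.101), and overlapped WT-BMDM-exo. Pgam1 averaged 8.67 ± 2.33, 7.73 ± 1.24 and 6.79 ± 1.45 CPM, and Eno1 averaged 97.0 ± 5.65, 99.4 ± 3.44 and 96.5 ± 3.08 CPM, after EKO-BMDM-exo, WT-BMDM-exo and PBS.

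Coding sequences of several glycolytic genes recur elsewhere in the genome. Every 50-base stretch of the coding sequences of Pgk1 and Pgam1 is also found in another annotated gene (100% each), as are 94.2% of those of Gapdh, 90.4% of Hadhb and 83.3% of Eno1, while 37 of the 56 genes share none. In PBS libraries the 5 genes with at least 80% shared lay at 1.23 to 21.2 RPKM with a median of 3.43, and the 37 with none at 1.81 to 99.2 RPKM with a median of 11.1. The pairs below are shown because a read within the identical ones matches both genes. The first 60 coding bases of Pgk1 (chromosome X) are identical to those of the pseudogene Gm5537 (chromosome 3).
Pgk1: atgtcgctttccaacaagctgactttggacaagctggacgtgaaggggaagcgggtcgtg
Gm5537: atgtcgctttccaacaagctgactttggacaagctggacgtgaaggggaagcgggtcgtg
Coding bases 301 to 360 of the longest Gapdh form (chromosome 6) are identical in Gapdh-ps15 (chromosome Y). Of the annotated pseudogene copies compared, which did not cover every chromosome, 54 lie within 2 mismatches.
Gapdh: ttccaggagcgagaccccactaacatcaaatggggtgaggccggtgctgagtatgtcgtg
Gapdh-ps15: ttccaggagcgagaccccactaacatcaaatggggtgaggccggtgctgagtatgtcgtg
The first 60 coding bases of Pkm and of the pseudogene Gm6560 (chromosome 5) differ at 1 base, in capitals, and Pkm shares 52.9% of its 50-base stretches but 15.3% of its 100-base stretches.
Pkm: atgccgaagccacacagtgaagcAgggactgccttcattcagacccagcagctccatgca
Gm6560: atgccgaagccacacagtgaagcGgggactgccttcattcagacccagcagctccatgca
Whether reads that match several places were dropped or shared out is not given in the sources used here, and read length is not given either, and the part of that handling in the levels of these genes was not tested. The 5 copies of Pgk1 had 17 counts over all libraries beside 1996 for Pgk1, and the 212 copies of Gapdh had 10009 beside 26183. Adding the counts of every such pseudogene to its gene, an alternative chosen after seeing the data, changed no call.

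**Figure D3:**
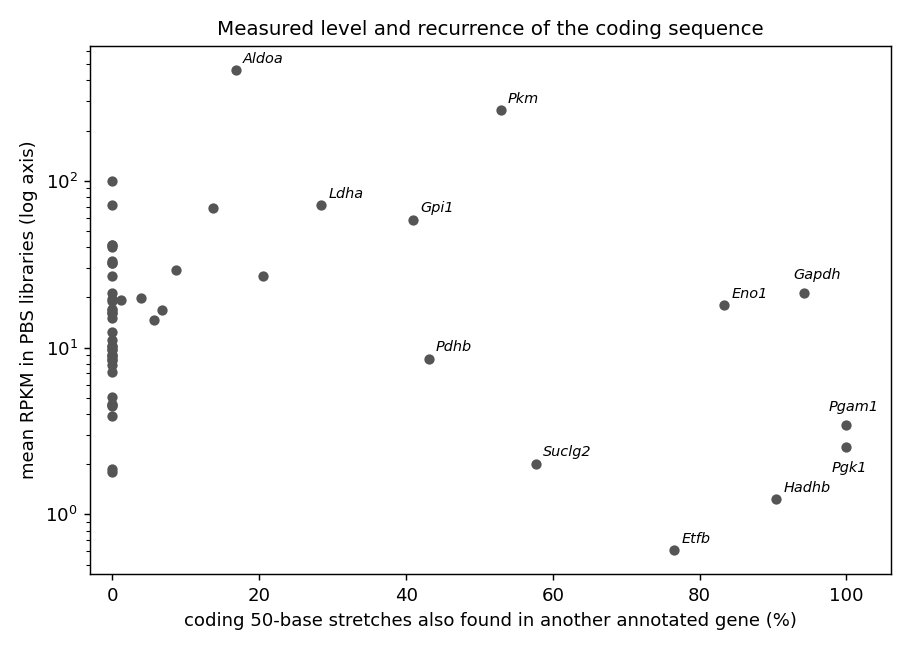
Mean RPKM in the 3 PBS libraries (y axis, log axis) against the share of 50-base coding stretches that recur in another annotated gene (x axis, %), each point a gene of the 56. Genes at or above 80% (Pgk1, Pgam1, Gapdh, Hadhb and Eno1) lie between 1.23 and 21.2 RPKM, below Aldoa and Pkm.

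Lactate dehydrogenase A reduces pyruvate to lactate, and the transporters MCT1 (Slc16a1) and MCT4 (Slc16a3) export it. None of the 3 genes was called by edgeR, DESeq2 or limma-voom in any comparison, and Ldha, higher after WT-BMDM-exo than after PBS, was the 1 that had an unadjusted p under 0.05. Ldha had 251, 248 and 241 CPM after EKO-BMDM-exo and 246, 259 and 250 CPM after WT-BMDM-exo, against 232, 236 and 244 CPM after PBS. All WT-BMDM-exo libraries of Ldha were above all PBS libraries, at 0.09 ± 0.039 (edgeR adjusted p = 0.286), and EKO-BMDM-exo overlapped both, at 0.05 ± 0.039 against PBS (edgeR adjusted p = 0.645). Slc16a3, the exporter typical of glycolytic cells, was more abundant than Slc16a1 at 14.7 against 2.01 RPKM.

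Over the whole route from glucose to lactate, the summed level of the 21 genes was 4811 to 4939 CPM after EKO-BMDM-exo, 4666 to 4729 CPM after WT-BMDM-exo and 4727 to 4842 CPM after PBS. EKO-BMDM-exo libraries were all above WT-BMDM-exo libraries, and Aldoa and Pkm together make up more than the rest in each group. The 5 payoff genes alone summed to 1475 to 1576 CPM after EKO-BMDM-exo and 1378 to 1418 CPM after WT-BMDM-exo, against 1501 to 1562 CPM after PBS. The sums are descriptions and were not tested.

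Pyruvate enters the mitochondrion to be oxidised by pyruvate dehydrogenase or carboxylated by pyruvate carboxylase. Of the 6 genes here, edgeR, DESeq2 and limma-voom called 0 in any comparison and 0 had an unadjusted p under 0.05. Pdk1, the kinase that switches pyruvate dehydrogenase off, had 52.9, 53.9 and 56.6 CPM after EKO-BMDM-exo and 51.8, 51.6 and 53.0 CPM after WT-BMDM-exo, against 49.8, 57.3 and 60.3 CPM after PBS. Pcx, which makes oxaloacetate, had 8.67, 6.05 and 9.01 CPM after EKO-BMDM-exo and 9.26, 9.56 and 7.15 CPM after WT-BMDM-exo, against 8.64, 9.48 and 8.58 CPM after PBS. The groups of both genes overlapped in each comparison.

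The complex itself is built from E1 (Pdha1 and Pdhb), E2 (Dlat) and E3 (Dld, which the 2-oxoglutarate dehydrogenase complex shares). In the order EKO-BMDM-exo, WT-BMDM-exo, PBS, Pdha1 averaged 70.1 ± 1.10, 69.7 ± 5.87 and 72.0 ± 1.29 CPM, and Pdhb averaged 35.5 ± 3.32, 34.4 ± 2.88 and 33.1 ± 5.00 CPM. Dlat averaged 41.1 ± 1.57, 42.0 ± 2.39 and 41.0 ± 2.97 CPM, and Dld averaged 77.3 ± 3.19, 77.9 ± 2.71 and 72.4 ± 7.37 CPM. The groups of all 4 genes overlapped in each comparison.

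In the TCA cycle and its linked enzymes, 15 genes, Mdh2 rose and Idh1 fell after WT-BMDM-exo, and edgeR called 0 in the other comparisons. There, 1 gene was higher and 2 lower at an unadjusted p under 0.05 for EKO-BMDM-exo against PBS, and 1 higher and 3 lower for EKO-BMDM-exo against WT-BMDM-exo. DESeq2 called Idh3g lower in both and limma-voom called 0. Mdh2 (ENSMUSG00000019179, chromosome 5, 135778480 to 135790398, plus strand) encodes mitochondrial malate dehydrogenase, which regenerates oxaloacetate. It was measured at 102, 108 and 97.7 CPM after EKO-BMDM-exo and 114, 111 and 113 CPM after WT-BMDM-exo, against 97.4, 98.4 and 92.3 CPM after PBS. WT-BMDM-exo lay above both other groups in every library, and EKO-BMDM-exo overlapped PBS.

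Mdh2 was higher by 0.24 ± 0.054 (17.8%) after WT-BMDM-exo than after PBS (edgeR adjusted p = 0.00495), and the call held under all 17 alternatives, with an adjusted p of at most 0.0352. Its difference was 0.09 ± 0.054 for EKO-BMDM-exo against PBS (edgeR adjusted p = 0.488) and -0.14 ± 0.054 for EKO-BMDM-exo against WT-BMDM-exo (edgeR adjusted p = 0.367), so a difference between the exosomes was not shown. Its cytosolic counterpart Mdh1 averaged 102 ± 3.78 CPM after EKO-BMDM-exo, 104 ± 4.63 CPM after WT-BMDM-exo and 106 ± 6.10 CPM after PBS.

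Idh1 (ENSMUSG00000025950, chromosome 1, 65158616 to 65186500, minus strand) encodes the cytosolic isocitrate dehydrogenase, which makes NADPH and is not itself part of the mitochondrial cycle. It was measured at 273, 256 and 264 CPM after EKO-BMDM-exo and 257, 236 and 236 CPM after WT-BMDM-exo, against 286, 269 and 270 CPM after PBS. WT-BMDM-exo lay below PBS in every library, and EKO-BMDM-exo overlapped both. Idh1 fell by 0.18 on the log2 scale after WT-BMDM-exo (SE 0.041; -11.6%; edgeR adjusted p = 0.00496). The call ended without PBS replicate 1 (edgeR adjusted p = 0.0592), WT-BMDM-exo replicate 2 (0.0512) or WT-BMDM-exo replicate 3 (0.0549). For EKO-BMDM-exo the values were -0.06 ± 0.041 against PBS (edgeR adjusted p = 0.637) and 0.12 ± 0.041 against WT-BMDM-exo (edgeR adjusted p = 0.25).

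Isocitrate is oxidised in the cycle by the NAD-dependent enzyme of Idh3a, Idh3b and Idh3g and by the NADP-dependent Idh2. Idh3b and Idh3g were at 34.3 and 31.1 RPKM and the catalytic subunit gene Idh3a at 4.97 RPKM. Idh3g, chosen after its values were seen, had 74.2, 75.2 and 79.8 CPM after EKO-BMDM-exo, against 85.8, 87.9 and 92.2 CPM after WT-BMDM-exo and 85.8, 87.8 and 87.6 CPM after PBS. The EKO-BMDM-exo libraries were below all 6 others, but the edgeR calls were missed, at -0.19 ± 0.058 against PBS (edgeR adjusted p = 0.0553) and -0.21 ± 0.058 against WT-BMDM-exo (edgeR adjusted p = 0.0801), and passed with DESeq2 (adjusted p = 0.0231 and 0.0198). Idh3a and Idh3b did not share that order: Idh3b averaged 119 ± 1.53, 121 ± 3.16 and 112 ± 3.81 CPM and Idh3a averaged 26.5 ± 3.43, 25.8 ± 4.34 and 23.3 ± 2.49 CPM after EKO-BMDM-exo, WT-BMDM-exo and PBS. Idh2 averaged 42.9 ± 2.77 CPM after EKO-BMDM-exo, 48.1 ± 0.888 CPM after WT-BMDM-exo and 43.8 ± 2.68 CPM after PBS. The 3 WT-BMDM-exo libraries of Idh2 were above the 6 others without passing (edgeR adjusted p = 0.487 for WT-BMDM-exo against PBS and 0.581 for EKO-BMDM-exo against WT-BMDM-exo).

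Cs, the citrate synthase that admits acetyl-CoA to the cycle, had 173, 167 and 173 CPM after EKO-BMDM-exo and 171, 167 and 174 CPM after WT-BMDM-exo, against 172, 165 and 169 CPM after PBS. Its 95% intervals were -0.07 to 0.11 for each exosome against PBS and -0.08 to 0.09 between the exosomes. Succinyl-CoA ligase pairs Suclg1 with either Sucla2 (ATP-forming) or Suclg2 (GTP-forming), and these stood at 8.50, 10.7 and 2.14 RPKM. Of the 50-base coding stretches of Suclg2, 57.7% recur in another annotated gene, against 0.0% for Suclg1 and Sucla2. The part of this in the lower measured level of Suclg2 was not tested. Sucla2, chosen after its values were seen, had 44.7, 43.7 and 42.0 CPM after EKO-BMDM-exo and 43.3, 48.3 and 45.2 CPM after WT-BMDM-exo, against 36.25, 38.3 and 40.6 CPM after PBS. Both exosome groups were above PBS in every library, at 0.18 ± 0.081 (edgeR adjusted p = 0.31) and 0.25 ± 0.081 (edgeR adjusted p = 0.0789; DESeq2 adjusted p = 0.0418). Suclg1 averaged 36.9 ± 0.621 CPM after EKO-BMDM-exo, 39.2 ± 1.23 CPM after WT-BMDM-exo and 41.7 ± 3.15 CPM after PBS, with every EKO-BMDM-exo library below all others (-0.18 ± 0.083 against PBS, edgeR adjusted p = 0.349). Suclg2 averaged 10.0 ± 0.575, 10.2 ± 2.00 and 9.33 ± 0.886 CPM in these groups, which overlapped.

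The remaining members of the cycle did not pass in edgeR, DESeq2 or limma-voom. Ogdh and Dlst, subunits of the 2-oxoglutarate dehydrogenase complex, averaged 224 ± 5.91 and 111 ± 4.09 CPM after EKO-BMDM-exo, 232 ± 1.64 and 111 ± 5.66 CPM after WT-BMDM-exo, and 220.0 ± 14.1 and 106 ± 3.99 CPM after PBS. Fh1, the fumarase, and Me2, the mitochondrial malic enzyme, averaged 26.3 ± 0.211 and 26.6 ± 1.62 CPM after EKO-BMDM-exo, 27.8 ± 2.06 and 26.2 ± 4.87 CPM after WT-BMDM-exo, and 26.8 ± 0.537 and 28.3 ± 2.85 CPM after PBS. The median log2 fold change of the 15 genes was 0.021 for EKO-BMDM-exo against PBS, 0.075 for WT-BMDM-exo against PBS and -0.029 for EKO-BMDM-exo against WT-BMDM-exo. Together with the 6 genes of pyruvate entry, they summed to 1646 to 1691 CPM after EKO-BMDM-exo, 1682 to 1707 CPM after WT-BMDM-exo and 1652 to 1685 CPM after PBS.

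**Figure D4:**
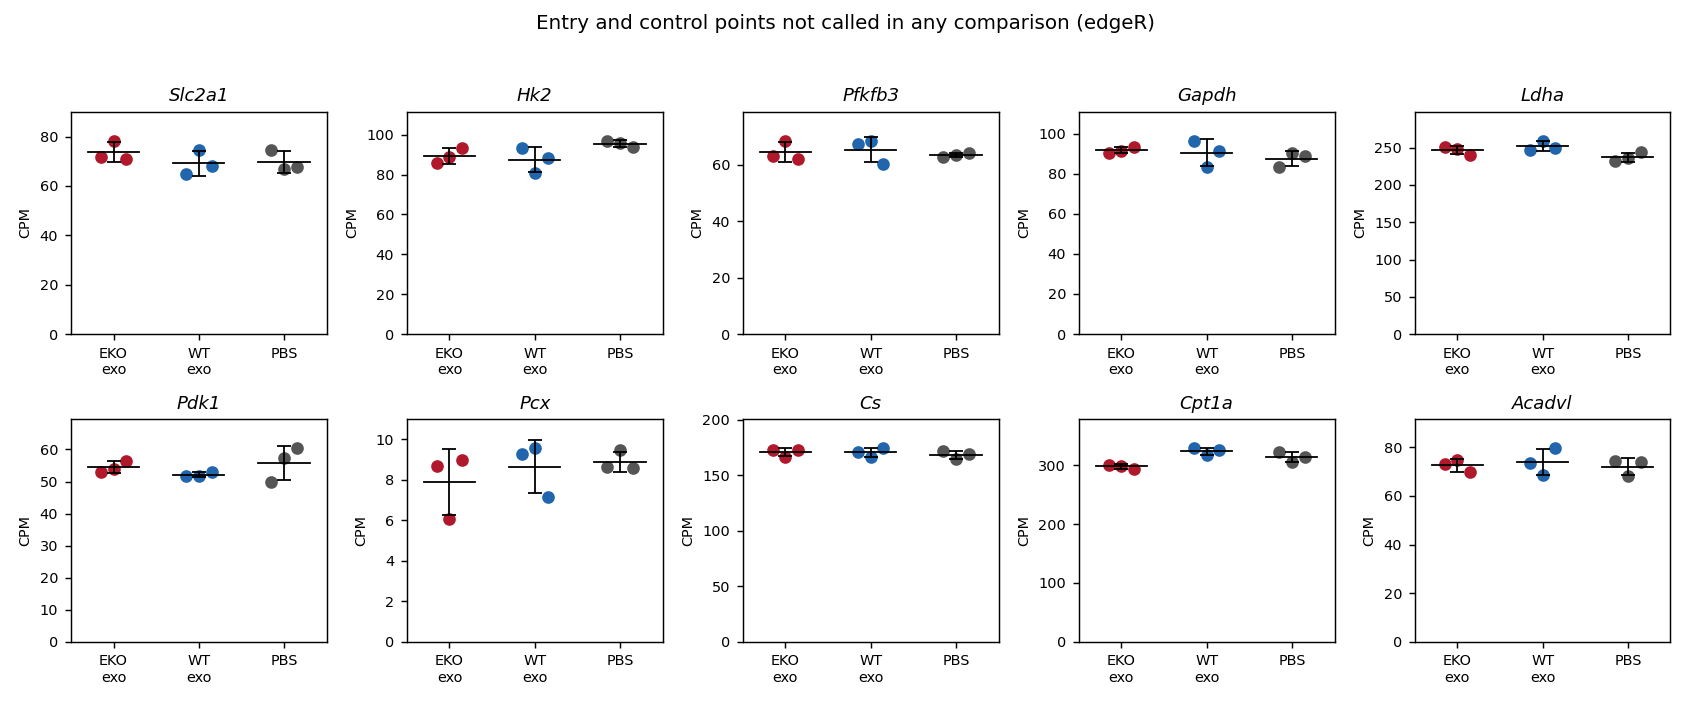
CPM (y axis, from 0) of 10 genes at entry and control points in each library (points) with the group mean and SD (lines, 3 libraries each), for EKO-BMDM-exo, WT-BMDM-exo and PBS from left to right. None of them passed the edgeR threshold in any comparison; Hk2 is lower in every exosome library than in every PBS library, and Cpt1a is lower in every EKO-BMDM-exo library than in every other library.

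Fatty acid oxidation, 14 genes, had no gene past the edgeR threshold in any comparison. At an unadjusted p under 0.05, 1 was higher and 1 lower after EKO-BMDM-exo than after PBS, 0 differed after WT-BMDM-exo, and 1 was lower after EKO-BMDM-exo than after WT-BMDM-exo. DESeq2 called 1 gene, Cpt1a, in the last of these and 0 in the others, and limma-voom called 0 in all. Cpt1a, the rate-limiting carnitine palmitoyltransferase of the outer membrane, had 301, 299 and 294 CPM after EKO-BMDM-exo, against 328, 317 and 325 CPM after WT-BMDM-exo and 322, 306 and 314 CPM after PBS. EKO-BMDM-exo was the lowest group in every library. The values were -0.07 ± 0.036 against PBS (edgeR adjusted p = 0.353) and -0.12 ± 0.036 against WT-BMDM-exo (edgeR adjusted p = 0.148; DESeq2 adjusted p = 0.024). Cpt2, its inner membrane partner, averaged 20.3 ± 1.24 CPM after EKO-BMDM-exo, 19.8 ± 5.59 CPM after WT-BMDM-exo and 21.5 ± 3.39 CPM after PBS.

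Acyl-CoA dehydrogenases of very long, long and medium chains open each round of beta-oxidation. Acadvl had 73.2, 74.9 and 69.6 CPM after EKO-BMDM-exo and 73.4, 68.7 and 79.5 CPM after WT-BMDM-exo, against 74.3, 68.2 and 73.8 CPM after PBS. Its groups overlapped throughout, and 42.9% of its exon length overlaps exons of Dvl2. Acadl averaged 70.3 ± 2.89, 66.5 ± 2.44 and 64.7 ± 4.92 CPM, and Acadm averaged 67.3 ± 4.85, 63.8 ± 5.36 and 66.2 ± 4.83 CPM, after EKO-BMDM-exo, WT-BMDM-exo and PBS. The trifunctional protein genes differ in measured level, with Hadha at 17.3 RPKM and Hadhb at 1.42 RPKM, where Hadhb is among the genes whose sequence recurs in pseudogenes. Hadha averaged 149 ± 4.85, 156 ± 6.88 and 147 ± 2.98 CPM in the same order of groups.

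Hadh, the hydroxyacyl-CoA dehydrogenase, averaged 48.1 ± 4.90 CPM after EKO-BMDM-exo, 47.3 ± 4.78 CPM after WT-BMDM-exo and 48.7 ± 2.49 CPM after PBS. The thiolase Acaa2 and the auxiliary enzymes Eci1 and Decr1, needed for unsaturated fatty acids, had log2 fold changes of 0.13 ± 0.094, -0.27 ± 0.18 and 0.10 ± 0.13 for EKO-BMDM-exo against PBS. For WT-BMDM-exo against PBS they were 0.12 ± 0.094, -0.05 ± 0.18 and 0.11 ± 0.13. The electron transfer flavoprotein, which passes electrons from the dehydrogenases to the respiratory chain, is encoded by Etfa and Etfb, and Etfdh encodes its oxidoreductase. Etfa, chosen after its values were seen, had 29.7, 29.0 and 33.4 CPM after EKO-BMDM-exo and 28.0, 26.1 and 28.5 CPM after WT-BMDM-exo, against 29.6, 25.2 and 25.2 CPM after PBS. All EKO-BMDM-exo libraries of Etfa were above all WT-BMDM-exo libraries (0.16 ± 0.099, edgeR adjusted p = 0.745) and they overlapped PBS (0.20 ± 0.099, edgeR adjusted p = 0.368). Etfdh averaged 30.6 ± 2.92, 34.0 ± 2.00 and 34.0 ± 1.38 CPM after EKO-BMDM-exo, WT-BMDM-exo and PBS. Etfb had 0.338 to 1.51 CPM, so its intervals span more than a unit of log2 on either side, and 58.2% of its exon length overlaps other genes. Of its 50-base coding stretches, 76.5% are also found in 1 other annotated gene, which is not a pseudogene. Whether that gene is Gm45233, which overlaps Etfb on the same strand, was not tested, so a copy elsewhere is not shown. The part of this sharing and overlap in its measured level was not tested. The 14 genes summed to 846 to 870.1 CPM after EKO-BMDM-exo, 856.5 to 902.5 CPM after WT-BMDM-exo and 842.5 to 876.3 CPM after PBS.

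Other genes of the same pathways are given next, from lists drawn up for this description with earlier results of these data known. Their edgeR counts stand beside 4.23%, 4.11% and 0.695% of all genes tested in EKO-BMDM-exo against PBS, WT-BMDM-exo against PBS and EKO-BMDM-exo against WT-BMDM-exo. Of 30 other genes of glycolysis and pyruvate metabolism tested, edgeR called 0 after EKO-BMDM-exo against PBS, 1 higher (Pdp1) after WT-BMDM-exo against PBS and 0 between the exosomes; 3 were higher and 1 lower, and 2 higher and 0 lower, at an unadjusted p under 0.05 in the comparisons with 0. DESeq2 called 0 and limma-voom 1, Eno2, in EKO-BMDM-exo against PBS, and both called 0 between the exosomes. Pdp1, the phosphatase that switches pyruvate dehydrogenase on, had 34.1, 37.7 and 43.8 CPM after EKO-BMDM-exo and 36.2, 39.8 and 43.0 CPM after WT-BMDM-exo, against 31.2, 27.1 and 35.1 CPM after PBS. The groups did not overlap for WT-BMDM-exo and did for EKO-BMDM-exo, at 0.35 ± 0.10 (edgeR adjusted p = 0.0361) and 0.31 ± 0.10 (edgeR adjusted p = 0.0819). The call for WT-BMDM-exo ended without PBS replicate 1 or 2 or without WT-BMDM-exo replicate 2 or 3 (edgeR adjusted p of 0.0921, 0.25, 0.093 and 0.198). For EKO-BMDM-exo, Pdp1 passed with no filter on low counts, with the replicate block, without EKO-BMDM-exo replicate 1 or without PBS replicate 3 (edgeR adjusted p of 0.0263, 0.0363, 0.0397 and 0.0289).

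Of 18 other TCA cycle genes tested, edgeR, DESeq2 and limma-voom called 0 in any comparison, with 2, 1 and 1 at an unadjusted p under 0.05 in EKO-BMDM-exo against PBS, WT-BMDM-exo against PBS and EKO-BMDM-exo against WT-BMDM-exo. Of 34 other fatty acid oxidation genes tested, 1 was lower after EKO-BMDM-exo than after PBS (Slc22a5) and 1 after WT-BMDM-exo than after PBS (Acsl4). Between the exosomes edgeR, DESeq2 and limma-voom called 0 of them, with 1 higher and 1 lower at an unadjusted p under 0.05. Slc22a5, the plasma membrane carnitine transporter, had 8.56, 9.57 and 9.76 CPM after EKO-BMDM-exo and 10.8, 10.9 and 10.3 CPM after WT-BMDM-exo, against 14.0, 12.3 and 13.0 CPM after PBS. Both exosome groups were below PBS in every library, at -0.50 ± 0.15 (edgeR adjusted p = 0.048) and -0.30 ± 0.15 (edgeR adjusted p = 0.359), and the first call ended under 10 of 17 alternatives, with an adjusted p of up to 0.22. Acsl4, which activates arachidonate and other polyunsaturated fatty acids, averaged 105 ± 5.24 CPM after EKO-BMDM-exo and 92.0 ± 3.64 CPM after WT-BMDM-exo, against 106 ± 6.57 CPM after PBS. The difference between WT-BMDM-exo and PBS was -0.20 ± 0.057 (edgeR adjusted p = 0.0362). That call ended under 6 of 17 alternatives, with an adjusted p of up to 0.262.

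Among 31 tested regulators of these pathways, Txnip was lower and Epas1 higher after both exosomes, and Hif1a was lower after WT-BMDM-exo. Over all genes tested, edgeR called 4.23% after EKO-BMDM-exo and 4.11% after WT-BMDM-exo against PBS. The regulators too were listed with earlier results of these data known, so their counts do not show that regulators respond more than other genes. Between the exosomes edgeR, DESeq2 and limma-voom called 0 of them, and 1 gene had an unadjusted p under 0.05. Txnip, the thioredoxin-interacting protein that removes glucose transporters from the cell surface, had 468, 487 and 493 CPM after EKO-BMDM-exo and 494, 506 and 505 CPM after WT-BMDM-exo, against 563, 536 and 572 CPM after PBS. Both exosome groups were below PBS in every library. The log2 fold changes of Txnip were -0.21 ± 0.033 (edgeR adjusted p = 3.44e-05) and -0.15 ± 0.033 (edgeR adjusted p = 0.00336), and both calls held under all 17 alternatives. Exons of Gm15441 on the other strand overlap 19.4% of its exon length.

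Epas1 encodes HIF2A and Hif1a encodes HIF1A, the oxygen-regulated subunits whose protein stability, rather than transcript level, is the usual point of control. Epas1 had 24.4, 24.7 and 25.4 CPM after EKO-BMDM-exo and 27.3, 20.6 and 25.1 CPM after WT-BMDM-exo, against 16.5, 19.3 and 17.8 CPM after PBS. Neither exosome group overlapped PBS, at 0.47 ± 0.11 (edgeR adjusted p = 0.00803) and 0.44 ± 0.11 (edgeR adjusted p = 0.0154). Without PBS replicate 1 both calls ended (edgeR adjusted p = 0.0566 and 0.0964), and the second also ended without WT-BMDM-exo replicate 1 or 3 (edgeR adjusted p of 0.14 and 0.0629). Hif1a had 114, 109.5 and 121 CPM after EKO-BMDM-exo and 106, 114 and 111 CPM after WT-BMDM-exo, against 142, 127 and 115 CPM after PBS. WT-BMDM-exo was below PBS in every library, at -0.21 ± 0.059 (edgeR adjusted p = 0.0296), and EKO-BMDM-exo overlapped PBS, at -0.16 ± 0.059 (edgeR adjusted p = 0.167). The Hif1a call ended under 5 of 17 alternatives, most of all without PBS replicate 1 (-0.13, edgeR adjusted p = 0.353).

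A further list of HIF targets, also drawn up with earlier results known, had 18 genes tested. Among them were Pfkfb3, which is also one of the 56, and Egln3, which is also among the regulators. In this list Ndrg1 was higher after EKO-BMDM-exo and Vegfa was lower after both exosomes, beside 4.23% and 4.11% of all genes called against PBS. Between the exosomes edgeR, DESeq2 and limma-voom called 0 of the list, and 1 gene had an unadjusted p under 0.05. Ndrg1, a stress response gene, had 97.5, 98.6 and 93.5 CPM after EKO-BMDM-exo and 82.9, 92.2 and 77.4 CPM after WT-BMDM-exo, against 73.6, 75.4 and 74.2 CPM after PBS. EKO-BMDM-exo lay above both other groups in every library, at 0.38 ± 0.061 against PBS (edgeR adjusted p = 5.24e-05, held under all 17 alternatives) and 0.20 ± 0.061 against WT-BMDM-exo (edgeR adjusted p = 0.173). WT-BMDM-exo was above PBS in every library, at 0.18 ± 0.061 (edgeR adjusted p = 0.105). Vegfa, the angiogenic growth factor, averaged 158 ± 1.27 CPM after EKO-BMDM-exo and 158 ± 3.42 CPM after WT-BMDM-exo, against 176 ± 7.26 CPM after PBS. Its log2 fold changes were -0.15 ± 0.044 for each exosome (edgeR adjusted p = 0.0384 and 0.0372), and the calls ended under 6 and 10 of 17 alternatives, with an adjusted p of up to 0.163 and 0.15.

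**Figure D5:**
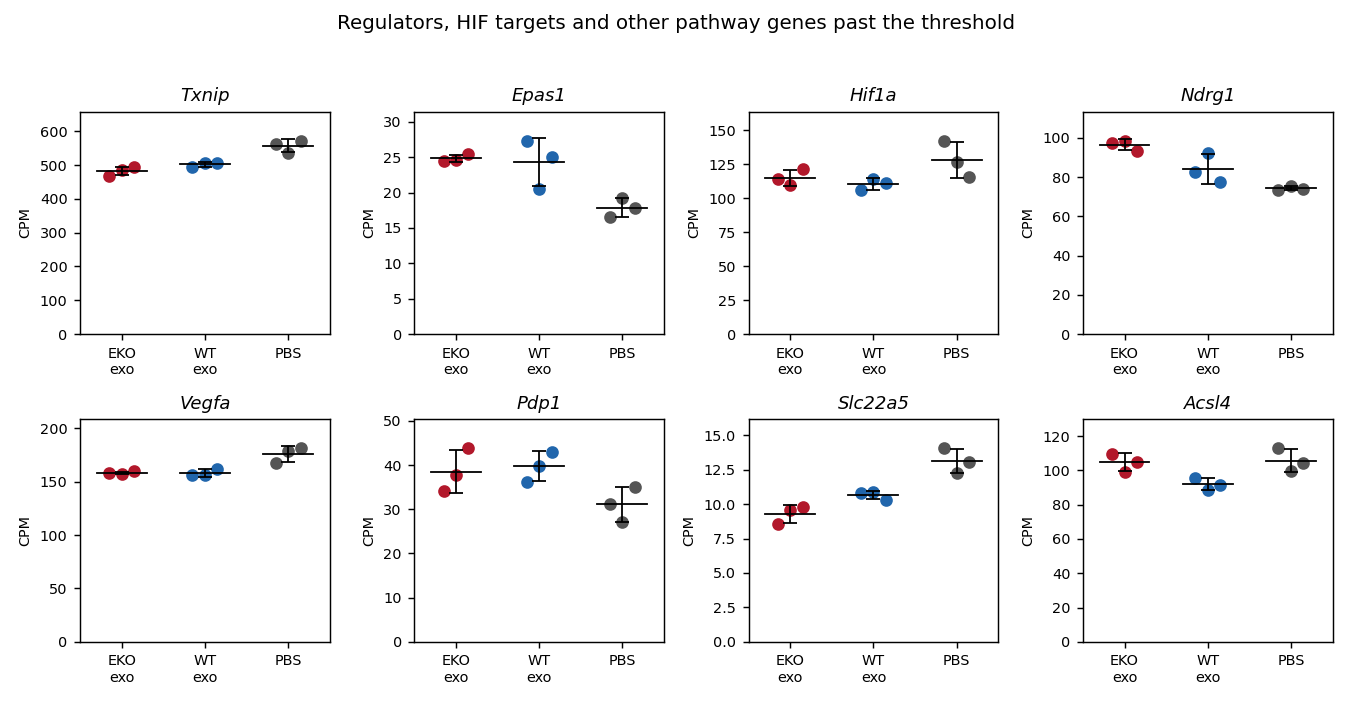
CPM (y axis, from 0) of the regulators, HIF targets and other pathway genes that are not among the 56 and passed the edgeR threshold in a comparison, in each library (points) with the group mean and SD (lines, 3 libraries each), for EKO-BMDM-exo, WT-BMDM-exo and PBS from left to right. Txnip and Vegfa are lower and Epas1 higher in both exosome groups than after PBS, and Ndrg1 is highest after EKO-BMDM-exo, at 96.5 CPM against 84.2 CPM after WT-BMDM-exo and 74.4 CPM after PBS.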

How the data were processed

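Whole-number read counts for each Ensembl gene in each of 9 libraries were deposited, with no normalization. The submitters' processing notes name STAR 2.7.5c with the GRCm38 build, and the labels' protocols name an mRNA-seq kit for library preparation. None of the sources used here gives the annotation release, read length, use of strand, trimming or handling of reads that match several places. All 55536 IDs matched a symbol in GENCODE M21 of GRCm38, which also gave exon lengths, overlaps and coding sequences.

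Counts were tested with edgeR 4.0.16 in R 4.3.3 (quasi-likelihood, robust, group as the only term, all 9 libraries, filterByExpr at a minimum count of 10, TMM scaling). "Adjusted p" is the edgeR value unless another tool is named. The SE of a log2 fold change came from the F statistic, and the biological coefficient of variation was 12.0%. CPM used TMM scaling and RPKM divided CPM by exon length in kb. An exact permutation test of 3 libraries against 3 has a smallest p of 0.1 and was not used. In simulated data with known changes, the fit recovered fewer of the genes with the smallest changes than of those with larger ones. A gene not called here is therefore not shown to be unchanged. Alternatives were RLE, upper-quartile and total-count scaling, no filter, a replicate block, only the 6 libraries compared, DESeq2 1.42.0, limma-voom (limma 3.58.1), leaving out each library, and adding gene copies.

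The 56 members and all lists were chosen with earlier results of these data known. Named with every library were members called in any comparison and 12 entry or control points (Slc2a1, Hk2, Pfkfb3, Gapdh, Pkm, Ldha, Pdk1, Pcx, Cs, Idh1, Cpt1a and Acadvl). Other members given with every library are marked as chosen after their values were seen.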

Additional observations from a re-analysis of the deposited data

Results flagged for a closer look

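Pkm differed between the exosomes. The direct test of EKO-BMDM-exo against WT-BMDM-exo gave 0.14 on the log2 scale (adjusted p = 0.0101 by edgeR), with all 3 EKO-BMDM-exo libraries above all 3 WT-BMDM-exo libraries, where the comparisons with PBS gave -0.02 for EKO-BMDM-exo and -0.16 for WT-BMDM-exo. The call ended without EKO-BMDM-exo replicate 1, WT-BMDM-exo replicate 2 or WT-BMDM-exo replicate 3 (adjusted p of 0.253, 0.0725 and 0.0924).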

How the results depend on the processing

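The calls of Hk3 against PBS after both exosomes, and of Mdh2 and Pkm after WT-BMDM-exo, held under every alternative run. Members called lower after EKO-BMDM-exo than after PBS numbered 1, Idh3g, with total-count scaling, the replicate block or DESeq2, in place of 0. For WT-BMDM-exo against PBS the members called lower were 4 with DESeq2, which added Gpi1 and Pfkm, in place of 2. DESeq2 also called 3 members higher, adding Sucla2, in place of 2, and 701 genes in all, in place of 568. Total-count scaling and limma-voom each called 3 members lower, adding Gpi1. When a library was left out, 1 to 2 were called lower, with 1 (Pkm) without PBS replicate 1 or WT-BMDM-exo replicate 3. Without WT-BMDM-exo replicate 2 they were Pkm and Pfkm. Between the exosomes, members called lower were 2 with DESeq2 (Cpt1a and Idh3g), members called higher were 0 to 1 when a library was left out, and genes called in all were 153 with DESeq2 and 52 to 109 when a library was left out, in place of 96. The lowest counts were 52 and 56 without EKO-BMDM-exo replicate 1 or 2, and 59 and 56 without WT-BMDM-exo replicate 2 or 3. The cause was not tested. With the replicate number as a block, 662, 669 and 144 genes were called, in place of 585, 568 and 96. Gpi1 then passed for WT-BMDM-exo against PBS, giving 3 members lower. Same-numbered libraries correlated at -0.035 to 0.04 in their deviations from the group means, and 0 of 9 pairs were over 0.1. No pairing by number was seen in these values, which cannot tell whether same-numbered libraries were prepared together. Other scalings moved the median of all genes by -0.0088 to 0.0029 on the log2 scale, and no called value changed sign. The member with the lowest measured level, Etfb, had fold changes with an SE of 0.70 to 0.71, so differences in it were not detectable.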
